A study of Oryza sativa with 6 samples.

Results

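The aerial surface of a rice leaf is covered by a cuticle of cutin and wax. This account concerns 29 transcripts of 29 genes whose descriptions match wax-related enzymes, lipid transfer proteins or GDSL lipases. The lipase and lipid transfer descriptions name no role in the cuticle. The 29 were chosen by their descriptions in the expression table. The words were 3-ketoacyl-CoA, very long chain, wax, CER1, glossy, fatty acid hydroxylase, lipid transfer, GDSL or its older spelling. The rule itself used no measured value. However, the members were chosen with earlier results of these data known, and the table holds only transcripts selected for change. Of the 7194 transcripts in the table the rule took 4 wax and very-long-chain lipid enzymes, 16 lipid transfer proteins and 9 GDSL lipases. Leaf poly(A) RNA of 4-week-old rice was sequenced, with 6 libraries and 2 per group, to compare plants with raised, normal and disrupted MIR171f, a gene for a microRNA of the miR171 family that targets Scarecrow-like transcription factors. The OX group overexpressed Osa-MIR171f in the whole plant and came from line 3 (OX 1) and line 5 (OX 2), with the promoter not given in the sources used here. The KO group carried CRISPR-Cas9 mutations of the same gene, and both of its libraries bear line number 2. The WT group was nontransgenic, and all seeds spent 3 days on Murashige and Skoog medium at 28 °C before the seedlings went to soil in a greenhouse. The labels name no drought or other treatment of these samples and do not say whether the libraries of WT, or those of KO, came from different plants. There the spread between libraries, which is all that p-values measure, may be technical.

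Wax begins with the elongation of fatty acids in the endoplasmic reticulum, where 3-ketoacyl-CoA synthases add carbon units and so set chain length. Enzymes of the CER1 and Glossy1 type, which carry a fatty acid hydroxylase domain, act in the steps that turn very long chains into alkanes and related wax compounds. Lipid transfer proteins are small, secreted, cysteine-rich proteins with a hydrophobic cavity that bind lipids, and some export wax components or act in defence. GDSL lipases are esterases named after a sequence motif around the active-site serine, and some of them join cutin monomers or cleave cutin.

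Every transcript in the table was listed by the authors for passing, in 1 or more of their comparisons, limits of 2-fold and of an unadjusted p of 0.05, so the counts below are counts among selected transcripts. Both limits were passed, in the authors' deposited table, by 22 members when OX was set against WT, by 11 for KO and WT and by 20 for KO and OX. The like counts of all listed transcripts in each comparison were not taken, so these counts do not set the members apart. Listed counts summed to 7376228 to 9739821 per library, and the authors' effective library totals ran from 23869522 to 34214364. Levels are CPM, counts scaled by these effective totals, and levels of different genes are compared as CPM per kilobase of transcript. Log2 fold changes, or log2 ratios, come with a standard error (SE) from edgeR's quasi-likelihood test, and a member is called higher or lower where the Benjamini-Hochberg adjusted p was below 0.05. On this scale the median log2 fold change of all 7034 tested transcripts was 0.28 for OX over WT, 0.43 for KO over WT and -0.41 for OX over KO. No listed description names a MIR171 precursor, so the labels could not be checked against the modified gene. The 34 leaf mesophyll markers, such as chlorophyll a/b proteins, summed to 80760 and 86780 CPM in WT, against 33960 and 36680 in OX and 53350 and 52680 in KO, and 28 of them were called lower in OX and 24 in KO. The 92 dividing-cell markers summed to 1787 and 1910 CPM in WT and to 1017 to 1160 CPM in the other libraries. Single markers among them went both ways, with 12 called higher and 16 lower in OX than in WT, and 21 and 13 in KO. These comparisons called 44.1% and 36.0% of all tested transcripts. The median log2 fold change of the 92 was -0.31 in OX and 0.03 in KO. The 6 pollen or anther markers summed to 13.7 to 16.4 CPM in WT, 45.3 to 49.8 in OX and 68.8 in both KO libraries. All 6 had a log2 fold change above 0 in OX and 3 were called higher, against 3 and 2 in KO. The 5 root markers summed to 16.6 to 99.0 CPM over all libraries, and the 3 secondary wall markers to 1.28 to 3.95 CPM. The part of these shifts in the results was not tested, and in whole leaves fewer cells of a type and less RNA per cell cannot be told apart.

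All 29 members passed the filter on low counts and 24 were called in at least 1 comparison. The like share of all tested transcripts was not counted. Every listed transcript had passed the authors' limits in at least 1 comparison, so this count does not set the members apart. In OX against WT, 11 were called higher and 5 lower, against 44.1% of all tested transcripts called (25.0% higher and 19.0% lower). In KO against WT, 7 were called higher and 6 lower, against 36.0% called (25.0% and 11.0%). In OX against KO, 13 were called higher and 6 lower, against 38.3% called (13.3% and 25.0%). The members' median log2 fold change was 1.03 for OX over WT, 0.21 for KO over WT and 0.998 for OX over KO. Leaving out 1 library reduced these counts, most of all to 7 higher in OX against WT (without OX 2), 2 lower (without WT 2, OX 1 or OX 2), 3 higher in KO against WT (without WT 1, WT 2, KO 1 or KO 2), 2 lower (without WT 2 or KO 2), 6 higher in OX against KO (without OX 2, KO 1 or KO 2) and 2 lower (without OX 1 or KO 2). The 6 lower calls of KO against WT were also reduced to 3 without WT 1 or KO 1, the 13 higher calls of OX against KO to 8 without OX 1, and the 6 lower ones to 3 without WT 1, WT 2, OX 2 or KO 1. Other scalings changed the split of calls. It became 16 higher and 4 lower in OX against WT with plain library totals, 4 and 7 in KO against WT with TMM and 3 and 7 with DESeq2 size factors, and 15 and 3 in OX against KO with TMM and 15 and 4 with DESeq2 size factors. The shares of all tested transcripts called were not counted in these settings, here or below. A loss of calls particular to the members thus cannot be told from a general one. The comparisons share libraries, so their values are given side by side below.

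**Figure D1:**
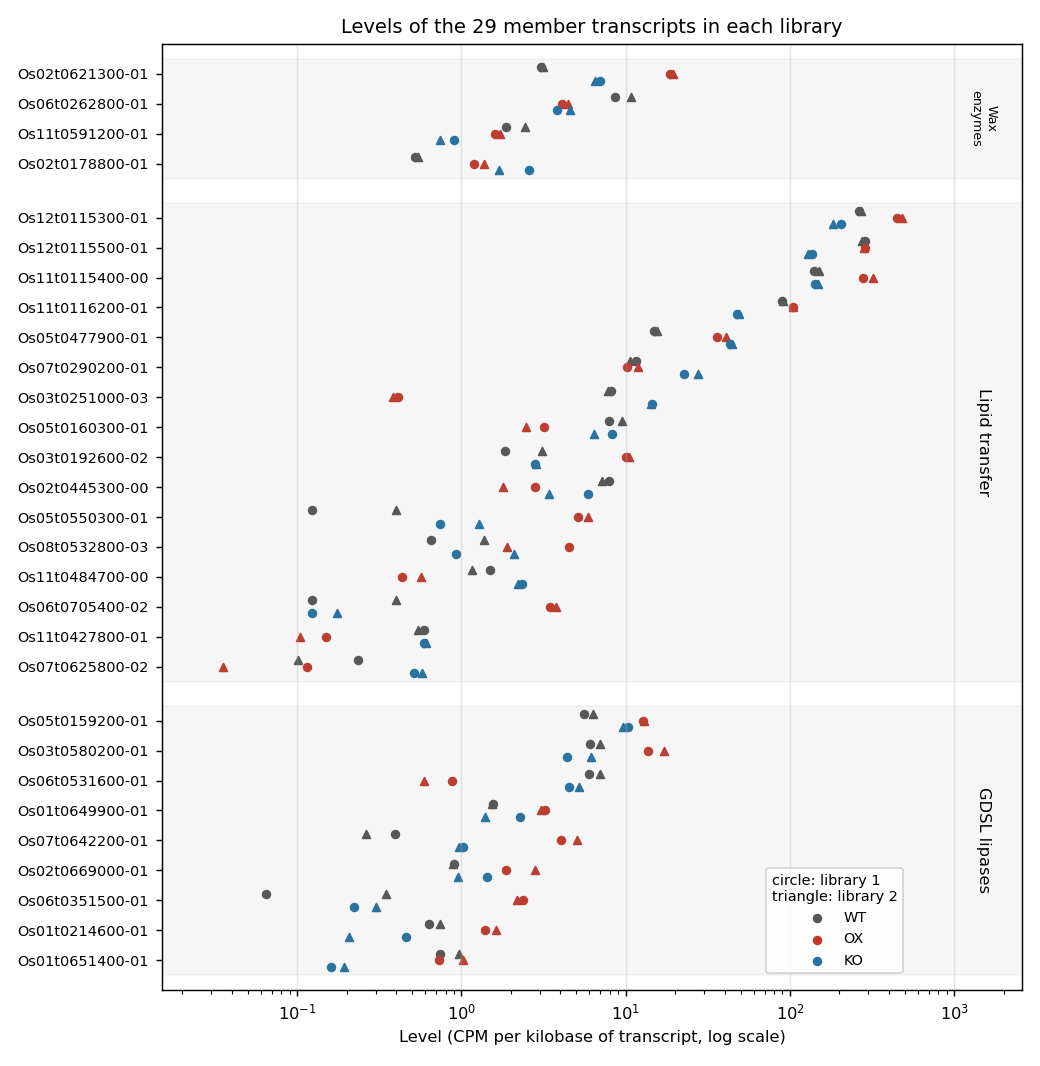
Level of each of the 29 member transcripts in each of the 6 libraries, in CPM per kilobase of transcript on a log axis, with circles for library 1 and triangles for library 2 of WT (grey), OX (red) and KO (blue). The 4 transcripts from the ends of chromosomes 11 and 12 lie highest in every library, and the lipases and most wax enzymes lie far below them.

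Levels differed widely between the members. Group means ran from 0.168 to 278.5 CPM per kilobase among WT values, from 0.0749 to 464.7 among OX values and from 0.149 to 193.1 among KO values. The highest were 4 lipid transfer transcripts, Os12t0115300-01, Os12t0115500-01, Os11t0115400-00 and Os11t0116200-01, whose means over all libraries were 308.3, 231.7, 196.9 and 81.0 CPM per kilobase. These 4 held 87.3% and 86.1% of the members' summed CPM in WT, against 84.9% and 85.0% in OX and, in KO, 76.7% and 75.8%. The next member, Os05t0477900-01, stood at 32.5 CPM per kilobase. Among the lipases the highest were Os05t0159200-01 and Os03t0580200-01, at 9.56 and 9.06 CPM per kilobase.

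The summed level of the 16 lipid transfer transcripts was 638 and 648 CPM in WT, against 929 and 988 in OX and 479 and 464 in KO. Both OX libraries lay above both WT libraries and both KO libraries below them, and this sum is mostly the 4 transcripts just named. The wax enzymes summed to 25.9 and 30.6 CPM in WT, against 58.0 and 61.1 in OX and, in KO, 30.8 and 28.7. The lipases summed to 28.7 and 32.6 CPM in WT, against 52.1 and 57.2 in OX and 35.4 and 34.3 in KO. In both of these sums the OX libraries were the highest, and for the wax enzymes the KO libraries overlapped the WT libraries. Most of the wax enzyme sum in OX was 1 transcript, Os02t0621300-01, with 46.0 and 48.1 CPM there against 7.51 and 7.79 in WT. Only 2 of the 4 wax enzymes had a log2 fold change above 0 in OX against WT.

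**Figure D2:**
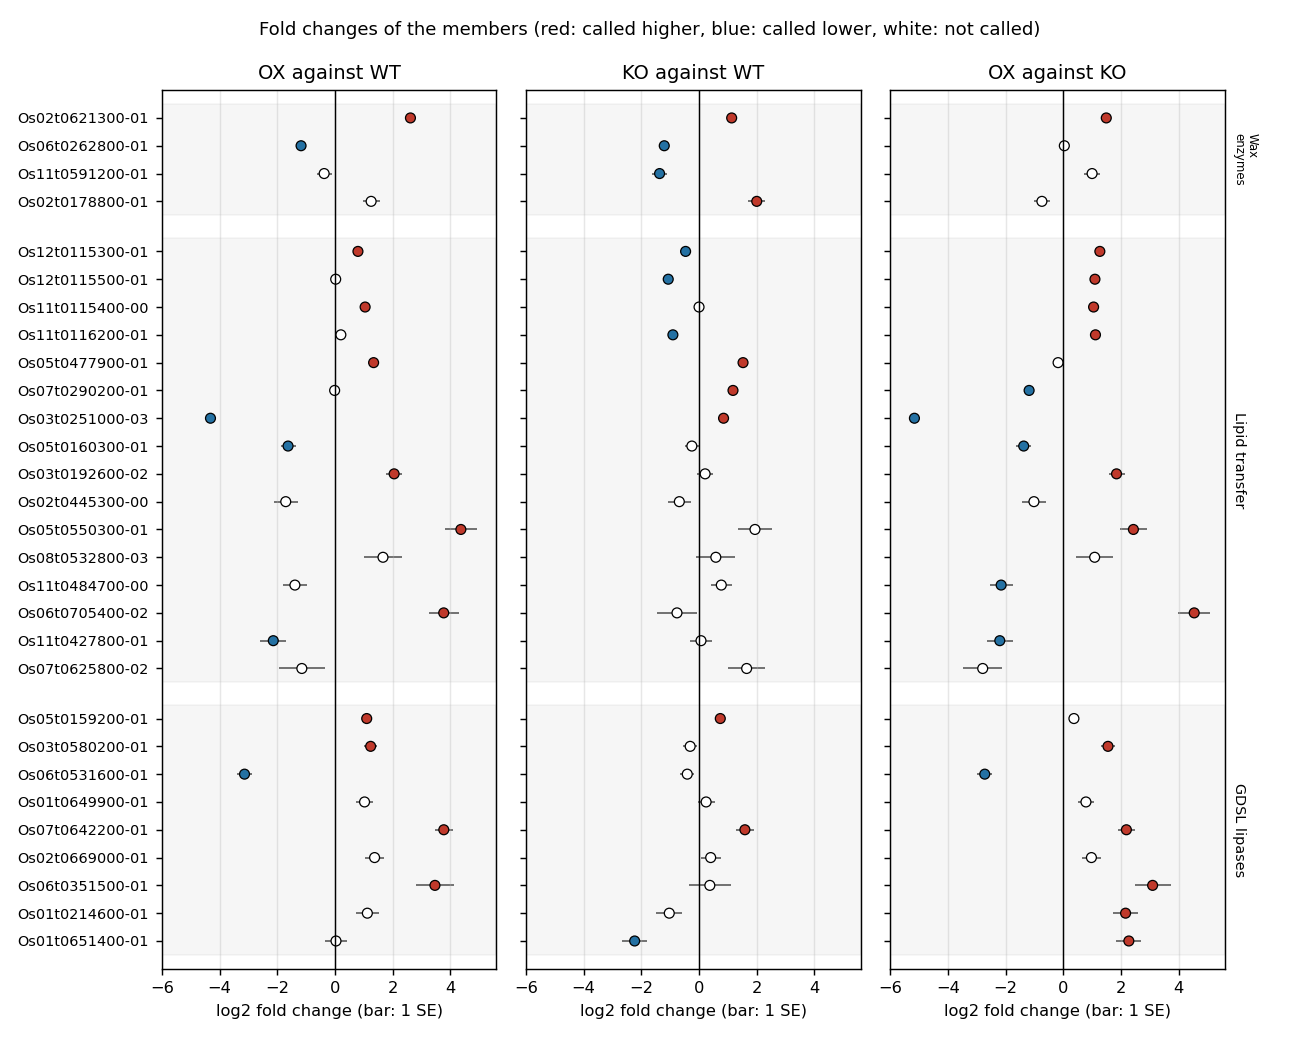
Log2 fold change of each member for the 3 comparisons, with bars of 1 SE, red for called higher, blue for called lower and white for not called. The 4 largest rises in OX against WT lie between 3.47 and 4.37, and the largest fall, of Os03t0251000-03, lies at -4.31.

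The 4 wax and very-long-chain lipid enzymes moved in opposite directions among themselves. The member with a fatty acid hydroxylase domain rose in both modified genotypes, the enzyme described as CUT1-like fell in both, the Glossy1-like member rose in KO and the other 3-ketoacyl-CoA synthase fell in KO. In OX 1 was called higher and 1 lower than WT, in KO 2 higher and 2 lower, and 1 was higher in OX than in KO. These comparisons called 44.1%, 36.0% and 38.3% of all tested transcripts. For all 4, neither modified genotype's libraries overlapped those of WT, which held for 84.7% of all tested transcripts when OX was compared with WT and 79.3% for KO. OX and KO did not overlap in 3 of the 4, against 84.0% of all tested transcripts.

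Os02t0621300-01, the fatty acid hydroxylase domain member on chromosome 2 (24718047 to 24724116, IRGSP-1.0), had 7.51 and 7.79 CPM in WT, against 46.0 and 48.1 in OX and, in KO, 17.3 and 16.2. The 3 genotypes did not overlap, with OX highest and WT lowest, and the 2 libraries of each lay close together. It rose 6.14-fold in OX (log2 ratio 2.62, SE 0.09, adjusted p = 0.000103) and 2.19-fold in KO (1.13, SE 0.09, adjusted p = 0.00123). OX also exceeded KO (1.49, SE 0.09, adjusted p = 0.000513). All 3 calls held in each of the 12 alternative settings.

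Os06t0262800-01, described as similar to the very-long-chain fatty acid condensing enzyme CUT1, an enzyme that in Arabidopsis is required for stem wax, lies on chromosome 6 (8598245 to 8599912). Its level was 14.4 and 17.9 CPM in WT, against 6.87 and 7.45 in OX and 6.37 and 7.61 in KO. Both modified genotypes lay below WT and overlapped each other. It fell 2.25-fold in OX (log2 ratio -1.17, SE 0.18, adjusted p = 0.0114) and 2.31-fold in KO (-1.21, SE 0.18, adjusted p = 0.0119), and the difference between OX and KO was 0.04 on the log2 scale (95% confidence interval -0.40 to 0.47). The OX call was lost without WT 2, OX 1 or OX 2 (adjusted p 0.0541 to 0.0830) and the KO call without WT 2, KO 1 or KO 2 (0.0517 to 0.0859).

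Os02t0178800-01, similar to Glossy1, a maize protein needed for normal leaf wax, lies on chromosome 2 (4355073 to 4362388). It had 1.16 and 1.22 CPM in WT, against 2.65 and 3.04 in OX and 5.75 and 3.77 in KO. Both OX libraries and both KO libraries lay above WT, and the KO libraries lay above those of OX but far apart from each other. It rose 3.99-fold in KO (log2 ratio 1.998, SE 0.30, adjusted p = 0.0133), a call lost without WT 1, WT 2 or KO 1 (adjusted p 0.0590 to 0.0814). In OX it was not called (1.26, SE 0.30, adjusted p = 0.0590), although with plain library totals and in the DESeq2 Wald test it was (0.0220 and 0.0286). OX and KO differed by -0.74 (SE 0.28, adjusted p = 0.277), which was not called.

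Os11t0591200-01, a 3-ketoacyl-CoA synthase on chromosome 11 (22468348 to 22471203), had 2.83 and 3.69 CPM in WT, against 2.43 and 2.60 in OX and, in KO, 1.38 and 1.13. The KO libraries were the lowest, and the OX libraries lay just below WT. It fell 2.58-fold in KO (log2 ratio -1.37, SE 0.27, adjusted p = 0.0358) but missed the threshold in OX (-0.37, SE 0.26, adjusted p = 0.954). The KO call was lost with plain library totals (adjusted p = 0.0568) and on leaving out any 1 of the 6 libraries (0.0605 to 0.198). The OX to KO difference was 0.998 (SE 0.27, adjusted p = 0.0987), and it was called with TMM (0.0342) and DESeq2 size factors (0.0376).

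**Figure D3:**
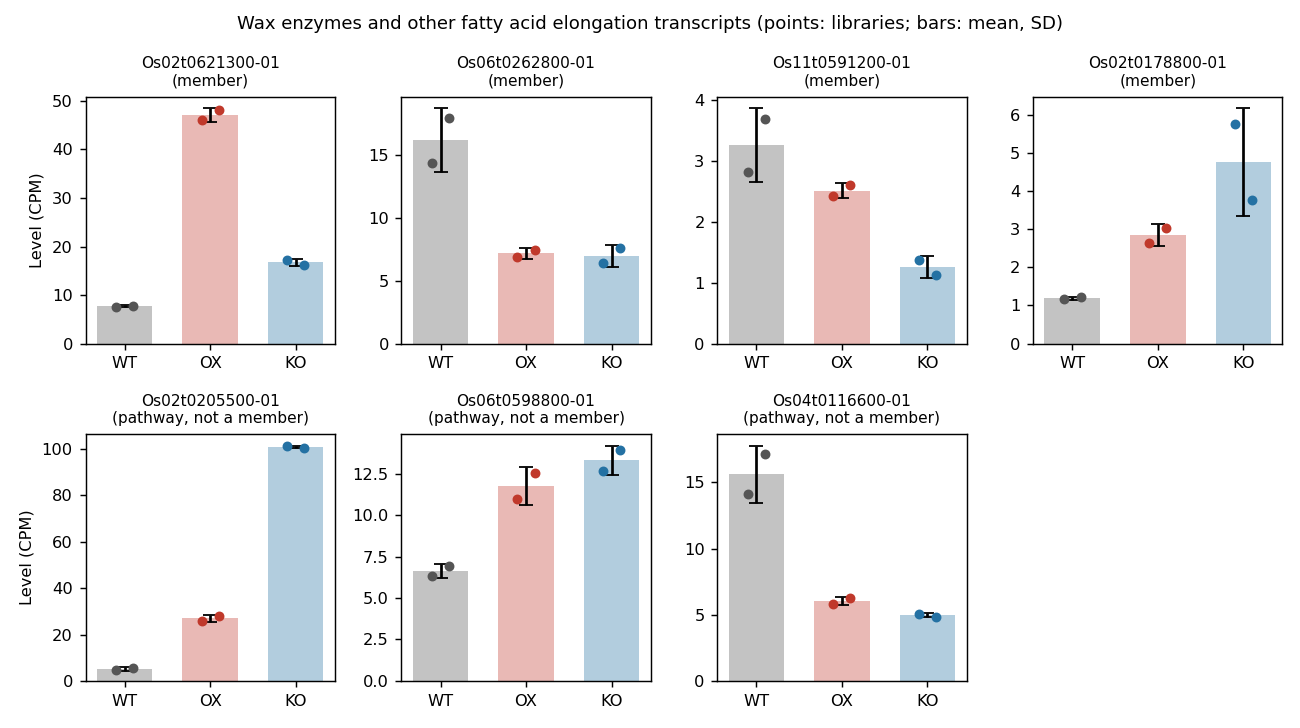
Level in CPM of the 4 wax enzymes (upper row) and of 3 other transcripts of the fatty acid elongation pathway (lower row), with points for libraries and bars for mean and SD of 2 libraries. Os02t0621300-01 is highest in OX, Os06t0262800-01 and Os04t0116600-01 are lower in OX and KO than in WT, and Os02t0205500-01 reaches about 100 CPM in KO.

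Other transcripts of the elongation pathway were taken from the authors' pathway assignment, a choice made after seeing the data. Of the 5 transcripts assigned to fatty acid elongation 2 are members, and the other 3 were called in both modified genotypes, 2 higher and 1 lower. The share of all tested transcripts called was 44.1% in OX against WT and 36.0% in KO against WT. Os02t0205500-01, similar to Fatty acid elongase 1, a type of 3-ketoacyl-CoA synthase, had 4.53 and 5.74 CPM in WT, against 25.8 and 28.1 in OX and 101.3 and 100.5 in KO. All 3 genotypes were apart, with KO highest. It rose in OX (log2 ratio 2.39, SE 0.13, adjusted p = 0.000323) and in KO (4.30, SE 0.14, adjusted p = 8.49e-05). Os06t0598800-01, described as Fatty acid elongase 1-like, rose in OX (0.83, SE 0.14, adjusted p = 0.0182) and in KO (1.01, SE 0.14, adjusted p = 0.0106). Os04t0116600-01, described only as a glucose/ribitol dehydrogenase family protein, fell in OX (-1.37, SE 0.16, adjusted p = 0.00408) and in KO (-1.65, SE 0.16, adjusted p = 0.00246). The very-long-chain condensing enzymes in the table thus went both ways within each genotype. With TMM or DESeq2 size factors, or without WT 1, KO 1 or KO 2, the 2 higher calls of this pathway in KO became 1, and in OX they became 1 without WT 1, WT 2, OX 1 or OX 2.

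Of the 3 transcripts assigned to cutin, suberine and wax biosynthesis, 1 is the fatty acid hydroxylase member. Os04t0511200-01, described as the abscisic-acid-associated EF-hand protein EFA27, rose in OX (log2 ratio 1.87, SE 0.17, adjusted p = 0.00171) and in KO (0.95, SE 0.17, adjusted p = 0.0234) and was higher in OX than in KO (0.92, SE 0.16, adjusted p = 0.0235). Its KO call was lost with TMM (0.140), with DESeq2 size factors (0.254) and on leaving out any 1 of the 6 libraries (0.0641 to 0.121), and its OX to KO call without OX 1, OX 2, KO 1 or KO 2 (0.0987 to 0.166). The third, Os11t0507200-00, described as similar to a transferase, was not called in any comparison. The list of other cuticle and suberin genes, matched by description, held 2 transcripts. They are similar to glycerol-3-phosphate acyltransferase 8 and to the long-chain acyl-CoA synthetase LACS9, and neither was called in any comparison.

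The list of plastid fatty acid synthesis, matched by description, held 7 transcripts of 6 genes. Of these, 4 are described as fatty acid desaturases, enzymes that put double bonds into chains, among them both transcripts of Os02g0716500, similar to a Delta-12 desaturase. The words of the list take any fatty acid desaturase, and the descriptions of these 4 do not place the enzyme in the plastid. All 7 of the list were called in OX against WT, 2 higher and 5 lower, against 44.1% of all tested transcripts called (25.0% higher and 19.0% lower). The median log2 fold change of the 7 was -1.43. Of the 5 lower calls, 3 are among these 4 desaturases, both transcripts of Os02g0716500 included, and 1 is the stearoyl-ACP desaturase named below. In KO against WT 2 were higher and 1 lower, against 36.0% of all tested transcripts called (25.0% higher and 11.0% lower). Os06t0143400-01, an acyl-ACP thioesterase, which releases finished chains from the acyl carrier, had 25.1 and 29.0 CPM in WT, against 150.1 and 139.4 in OX and 309.1 and 297.3 in KO. It rose in OX (2.42, SE 0.09, adjusted p = 0.000117) and more in KO (3.49, SE 0.09, adjusted p = 6.19e-05), and OX stood below KO (-1.07, SE 0.08, adjusted p = 0.00126). Os03t0423300-01, a stearoyl-ACP desaturase, which makes oleate in the plastid, had 6.47 and 6.83 CPM in WT, against 0.567 and 0.789 in OX and 5.14 and 5.67 in KO. Its OX libraries stood far below all others, and it fell in OX (-3.28, SE 0.25, adjusted p = 0.000992). The 5 lower calls in OX became 3 without KO 1 or KO 2. The 2 higher calls in OX became 1 on leaving out any 1 of the 6 libraries, as did the 2 in KO. The 1 lower call in KO became 0 without WT 2, KO 1 or KO 2 and with plain library totals, and with TMM or DESeq2 size factors the KO split was 1 higher and 2 lower.

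Of the 16 lipid transfer proteins, 6 were called higher and 3 lower in OX than in WT, 3 each way in KO, and 7 higher and 5 lower in OX than in KO. Their median log2 fold changes were 0.12, 0.14 and 0.43 in these comparisons, in which 44.1%, 36.0% and 38.3% of all tested transcripts were called. The 6 that rose in OX range from the most abundant member to transcripts with only a few reads in WT. Without OX 2 the 6 higher calls became 4, and the 3 lower calls became 1 without WT 2, OX 1 or OX 2. In KO against WT the 3 higher calls became 1 without WT 2 or KO 2 and with DESeq2 size factors, against 4 lower calls with that scaling, and the 3 lower ones 2 without WT 1, WT 2 or KO 2. In OX against KO the 7 higher calls became 4 without KO 1 or KO 2, and the 5 lower ones became 1 or 2 on leaving out any 1 of the 6 libraries and 2 with TMM.

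The 4 most abundant lipid transfer transcripts sit in pairs at like places near the starts of chromosomes 11 and 12, whose short-arm ends carry a duplicated segment. On chromosome 11, Os11t0115400-00, described as lipid transfer protein LPT IV, spans 703038 to 703928, and Os11t0116200-01, similar to nonspecific lipid-transfer protein 3, starts 19004 bases further on, at 722933, and ends at 724377. On chromosome 12, Os12t0115300-01, with a plant lipid transfer protein helical domain, spans 746162 to 747120, and Os12t0115500-01, again similar to nonspecific lipid-transfer protein 3, spans 760947 to 762381 after a gap of 13826 bases. How reads of near-identical copies were shared is not given in the sources used here, so the split within a chromosome 11 and 12 pair is uncertain.

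Os11t0115400-00 had 108.9 and 116.8 CPM in WT, against 217.6 and 249.2 in OX and, in KO, 110.6 and 114.7. The OX libraries stood apart, and WT and KO overlapped. It rose 2.07-fold in OX against WT (log2 ratio 1.05, SE 0.08, adjusted p = 0.00102) and was as much higher in OX than in KO (1.05, SE 0.08, adjusted p = 0.00119). In KO against WT the difference was -0.00 (95% confidence interval -0.21 to 0.20), but with TMM or DESeq2 size factors on the listed transcripts it was called lower (-0.40, adjusted p = 0.0282, and -0.49, adjusted p = 0.0139).

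Os12t0115300-01 had 224.4 and 231.3 CPM in WT, against 381.3 and 411.4 in OX and 173.8 and 155.6 in KO. It was the only member called higher in OX and lower in KO, and its 3 genotypes did not overlap. It rose 1.74-fold in OX (log2 ratio 0.80, SE 0.07, adjusted p = 0.00170) and fell 1.38-fold in KO (-0.47, SE 0.07, adjusted p = 0.0143). The KO call was lost with plain library totals (adjusted p = 0.0741) and without WT 1, WT 2 or KO 2 (0.0579 to 0.0772). The difference between OX and KO was 1.27 (SE 0.07, adjusted p = 0.000449).

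Os12t0115500-01 had 205.4 and 196.8 CPM in WT, against 206.7 and 203.2 in OX and 98.9 and 92.7 in KO. Os11t0116200-01 had 66.2 and 67.0 CPM in WT, against 77.1 and 76.5 in OX and 35.0 and 35.9 in KO. In both, the KO libraries lay far below the others. Os12t0115500-01 fell 2.10-fold in KO (log2 ratio -1.07, SE 0.05, adjusted p = 0.000286), and its OX to WT difference was 0.03 (95% confidence interval -0.11 to 0.16). Os11t0116200-01 fell 1.88-fold in KO (-0.91, SE 0.06, adjusted p = 0.000528) but missed the threshold in OX (0.21, SE 0.06, adjusted p = 0.0916). With plain library totals both were called higher in OX (0.40, adjusted p = 0.0102, and 0.58, adjusted p = 0.00208), and the DESeq2 Wald test called the second (adjusted p = 0.0390). OX exceeded KO by 1.10 for Os12t0115500-01 (SE 0.05, adjusted p = 0.000303) and by 1.12 for Os11t0116200-01 (SE 0.06, adjusted p = 0.000315). These OX to KO calls and the KO calls held in each of the 12 alternative settings.

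**Figure D4:**
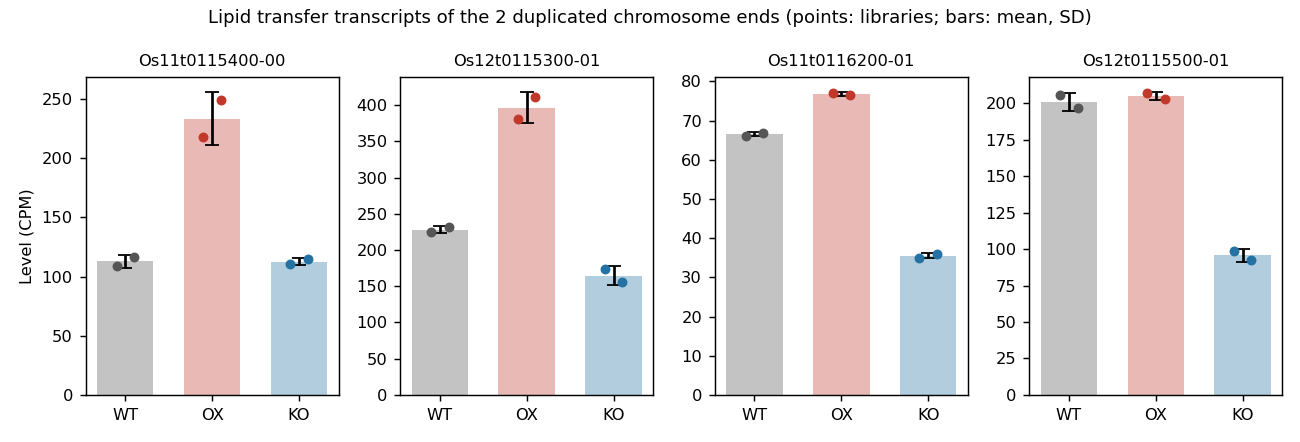
Level in CPM of the 4 lipid transfer transcripts near the starts of chromosomes 11 and 12, with points for libraries and bars for mean and SD of 2 libraries. The 2 transcripts on the left are highest in OX, and the 2 on the right are near WT in OX and lower in KO.

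Levels were also summed over each pair of counterparts, which were paired by place and description and not by sequence. Os11t0115400-00 and Os12t0115300-01 together came to 340.7 ± 10.5 CPM in WT, against 629.8 ± 43.6 in OX and 277.4 ± 9.95 in KO (SD, n = 2). Os11t0116200-01 and Os12t0115500-01 together came to 267.7 ± 5.55 CPM in WT, against 281.8 ± 2.94 in OX and 131.2 ± 3.70 in KO (SD, n = 2). The first sum was thus set apart mainly by OX and the second by KO. A second listed transcript of the Os11g0116200 gene, Os11t0116200-02, is described as a C3HC4 zinc finger protein and overlaps the member's span. It had 22.0 and 24.3 CPM in WT, against 7.50 and 7.19 in OX and 12.1 and 13.2 in KO, and fell in OX (log2 ratio -1.66, SE 0.12, adjusted p = 0.000783), where the member was not called, and in KO (-0.87, SE 0.12, adjusted p = 0.00898), where the member fell too. The KO call of Os11t0116200-02 was lost without KO 1 or KO 2 (0.0781 and 0.0524). Since the strand setting of the counting is not given in the sources used here, reads of these overlapping transcripts may not be told apart.

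Away from these ends, the nonspecific lipid transfer protein transcript Os05t0477900-01 (chromosome 5, 23508215 to 23509009) rose in both modified genotypes. It had 6.31 and 6.54 CPM in WT, against 15.2 and 17.3 in OX and 18.3 and 18.7 in KO. WT was lowest, with OX and KO near each other. The log2 fold change was 1.34 in OX (SE 0.12, adjusted p = 0.00168) and 1.52 in KO (SE 0.12, adjusted p = 0.00121), and both calls held in each alternative setting. The OX to KO difference was -0.18 (95% confidence interval -0.47 to 0.11).

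Os03t0251000-03 (chromosome 3, 7965176 to 7966095) carries the domain shared by lipid transfer proteins, seed storage proteins and trypsin-alpha amylase inhibitors. It had 192 and 172 reads in WT, against 12 and 12 in OX and 346 and 358 in KO, which is 7.43 and 7.21 CPM, 0.378 and 0.351 CPM, and 13.3 and 13.1 CPM. It was the only member called lower in OX and higher in KO, and the libraries of a genotype hardly differed. It fell 19.9-fold in OX (log2 ratio -4.31, SE 0.18, adjusted p = 0.000160) and was lower in OX than in KO (-5.16, SE 0.18, adjusted p = 0.000112). The 1.80-fold rise in KO (0.85, SE 0.14, adjusted p = 0.0217) was lost with TMM (adjusted p = 0.212), with DESeq2 size factors (0.385), and without WT 1, WT 2, KO 1 or KO 2 (0.0924 to 0.147).

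Os07t0290200-01, with the same domain, had 8.33 and 7.71 CPM in WT, against 7.34 and 8.59 in OX and 16.4 and 19.9 in KO. WT and OX overlapped and KO lay above both. It rose 2.26-fold in KO (log2 ratio 1.18, SE 0.16, adjusted p = 0.00943) and differed between OX and WT by -0.01 (95% confidence interval -0.41 to 0.39). OX stood below KO (-1.19, SE 0.16, adjusted p = 0.00891). The KO call was lost with DESeq2 size factors (adjusted p = 0.0698) and without WT 2 or KO 2 (0.0592 and 0.0663), and the OX to KO call without OX 1 or KO 2 (0.0654 and 0.0633).

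A further 3 lipid transfer transcripts were low in WT and rose in OX. Os05t0550300-01, described as a lipid transfer protein fragment (chromosome 5, 27330717 to 27331341), had 2 and 6 reads in WT, against 101 and 126 in OX and 12 and 22 in KO. Os06t0705400-02, similar to nonspecific lipid-transfer protein 2P, had 2 and 6 reads in WT, against 69 and 81 in OX and 2 and 3 in KO. Both were far higher in the OX libraries than in any other, and their folds rest on a few reads outside OX. The log2 fold change in OX was 4.37 for the first (SE 0.56, adjusted p = 0.00660) and 3.77 for the second (SE 0.53, adjusted p = 0.00873, and 0.0504 without OX 2). OX exceeded KO by 2.43 for the first (SE 0.48, adjusted p = 0.0344) and 4.54 for the second (SE 0.56, adjusted p = 0.00652), and these calls were lost without OX 1, OX 2, KO 1 or KO 2 (0.0917 to 0.176) and without KO 1 or KO 2 (0.0571 and 0.0512).

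Os03t0192600-02, of the plant lipid transfer protein and Par allergen family, had 1.98 and 3.31 CPM in WT, against 10.7 and 11.2 in OX and, in KO, 3.03 and 3.07. The OX libraries were highest, and the KO libraries lay within the range of WT. It rose 4.15-fold in OX (log2 ratio 2.05, SE 0.28, adjusted p = 0.00814, and 0.0533 without OX 2). OX also exceeded KO (1.85, SE 0.28, adjusted p = 0.0132), a call lost without OX 1, OX 2, KO 1 or KO 2 (0.0736 to 0.0913).

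Another 3 transcripts of the family were called lower in OX than in KO, 2 of them also than in WT. Os05t0160300-01, with the bifunctional inhibitor domain, had 5.34 and 6.41 CPM in WT, against 2.14 and 1.67 in OX and 5.56 and 4.31 in KO, so that OX was lowest and the others overlapped. It fell 3.08-fold in OX (log2 ratio -1.62, SE 0.26, adjusted p = 0.0145), a call lost without WT 2, OX 1 or OX 2 (0.0541 to 0.0930). Against KO it was also lower (-1.37, SE 0.26, adjusted p = 0.0295), and that call was lost on leaving out any 1 of the 6 libraries (0.0501 to 0.165) and with each other library scaling (0.0510 to 0.0934). Os11t0427800-01, similar to LPT III, had 13 and 11 reads in WT, against 4 and 3 in OX and 13 and 14 in KO. At this depth it was called lower in OX than in WT (-2.14, SE 0.45, adjusted p = 0.0382) and than in KO (-2.20, SE 0.44, adjusted p = 0.0370), and both calls were lost on leaving out any 1 library (0.0817 to 0.213), with plain library totals (0.0749 and 0.0542) and in the DESeq2 Wald test (0.149 and 0.135). The second was also lost with TMM (0.0752) and DESeq2 size factors (0.0673). Os11t0484700-00 had 14 and 10 reads in WT, against 5 and 7 in OX and 22 and 22 in KO. It was called only between OX and KO (-2.16, SE 0.39, adjusted p = 0.0269), and that call too was lost on leaving out any 1 library (0.0541 to 0.165), with TMM (0.0549) and in the DESeq2 Wald test (0.0512).

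The other 3 lipid transfer transcripts were not called in any comparison. Os02t0445300-00 had 0.438 to 1.94 CPM, with OX lowest (log2 ratio -1.70 in OX, SE 0.42, adjusted p = 0.0655, and 0.0486 with DESeq2 size factors and 0.0433 in the DESeq2 Wald test). Os07t0625800-02 had 1 to 13 reads, with 11 and 13 of them in KO. Os08t0532800-03 had 0.620 to 4.28 CPM. Its OX libraries stood at 4.28 and 1.81 CPM, and the log2 ratio of OX to WT was 1.67 (SE 0.66, adjusted p = 0.291).

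Of the 9 GDSL lipases 4 were called higher and 1 lower in OX than in WT, 2 and 1 in KO, and 5 and 1 in OX relative to KO. Their median log2 fold changes were 1.13, 0.24 and 1.55 in these comparisons, in which 44.1%, 36.0% and 38.3% of all tested transcripts were called. In 7 of the 9 both OX libraries lay above both WT libraries, in 1 both lay below, and in 1 they overlapped, while 84.7% of all tested transcripts did not overlap. The 4 higher calls in OX became 2 without OX 1 or OX 2, and the 3 calls in KO became 0 without WT 1, KO 1 or KO 2 and 1 without WT 2, OX 1 or OX 2. With TMM or DESeq2 size factors 0 lipases were called higher in KO and 1 lower. The 5 higher calls of OX against KO became 0 without OX 2, 1 without KO 1 or KO 2, 2 without OX 1, and 3 without WT 1 or WT 2.

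Os07t0642200-01 (chromosome 7, 26727638 to 26729979) had 13 and 8 reads in WT, against 164 and 221 in OX and 34 and 34 in KO, which is 0.503 and 0.335 CPM, 5.17 and 6.46 CPM, and 1.30 and 1.24 CPM. The genotypes did not overlap, and OX was far above the others. It rose 13.7-fold in OX (log2 ratio 3.77, SE 0.32, adjusted p = 0.00134), in each alternative setting. It also rose in KO (1.59, SE 0.32, adjusted p = 0.0375), a call lost with TMM (0.0984), with DESeq2 size factors (0.133) and on leaving out any 1 library (0.0661 to 0.151). OX exceeded KO (2.19, SE 0.29, adjusted p = 0.00793), a call lost without OX 2, KO 1 or KO 2 (0.0569 to 0.0669).

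Os06t0531600-01 (chromosome 6, 19839394 to 19842519) was the only lipase called lower in OX. It had 8.56 and 9.97 CPM in WT, against 1.26 and 0.848 in OX and 6.48 and 7.46 in KO, so that OX stood far below the others and KO just below WT. It fell 8.77-fold against WT (log2 ratio -3.13, SE 0.27, adjusted p = 0.00139) and was lower than in KO (-2.72, SE 0.26, adjusted p = 0.00256), and both calls held in each alternative setting. In KO against WT it was not called (-0.41, SE 0.24, adjusted p = 0.772). A second listed transcript of this gene, Os06t0531600-02, described as an esterase, had 8 to 35 reads and was not called in OX against WT (-0.76, SE 0.43, adjusted p = 0.669), while it was called lower in OX than in KO (-1.89, SE 0.41, adjusted p = 0.0499), a call lost in each of the 12 alternative settings (0.0510 to 0.229).

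Os05t0159200-01, the lipase with the highest level, had 9.72 and 11.0 CPM in WT, against 22.2 and 22.3 in OX and 17.9 and 16.6 in KO. WT was lowest and OX highest, without overlap. It rose 2.15-fold in OX (log2 ratio 1.10, SE 0.11, adjusted p = 0.00288), in each alternative setting, and 1.66-fold in KO (0.73, SE 0.11, adjusted p = 0.0151). The KO call was lost with TMM (adjusted p = 0.206), with DESeq2 size factors (0.455), and without WT 1, KO 1 or KO 2 (0.0610 to 0.106). OX and KO differed by 0.37 (SE 0.11, adjusted p = 0.146), and OX was called higher with each other library scaling (0.0139 to 0.0387). It lies 42860 bases from the lipid transfer member Os05t0160300-01, which fell in OX.

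Os03t0580200-01 had 4.72 and 5.40 CPM in WT, against 10.7 and 13.2 in OX and, in KO, 3.41 and 4.75. The OX libraries stood highest, and KO overlapped WT. It rose 2.36-fold in OX (log2 ratio 1.24, SE 0.23, adjusted p = 0.0256), a call lost without WT 1, WT 2, OX 1 or OX 2 (0.0708 to 0.152). Against KO it was higher in OX (1.55, SE 0.23, adjusted p = 0.0133), a call lost without OX 2 or KO 1 (0.0875 and 0.0689).

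Os06t0351500-01 had 2 and 10 reads in WT, against 91 and 90 in OX and, in KO, 7 and 10. The reads outside OX are few and the OX libraries lay far above them. It rose in OX (log2 ratio 3.47, SE 0.65, adjusted p = 0.0255) and exceeded KO (3.10, SE 0.62, adjusted p = 0.0372). Both calls were lost without OX 1, OX 2, KO 1 or KO 2 (0.0535 to 0.108 and 0.137 to 0.205).

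Os01t0651400-01 had 18 and 22 reads in WT, against 22 and 33 in OX and 4 and 5 in KO. OX overlapped WT in CPM, and KO was lowest. It fell 4.70-fold in KO (log2 ratio -2.23, SE 0.44, adjusted p = 0.0358) and was higher in OX than in KO (2.27, SE 0.43, adjusted p = 0.0306). Both calls were lost on leaving out any 1 of the 6 libraries (0.0667 to 0.192 and 0.0576 to 0.171), and the first also in the DESeq2 Wald test (0.0544). Its neighbour among the members on chromosome 1, Os01t0649900-01, ends 84135 bases before it and was not called in any comparison (1.03 in OX, SE 0.30, adjusted p = 0.111, or 0.0386 with plain library totals, and 0.24 in KO, SE 0.30, adjusted p = 1).

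Os01t0214600-01 had 23 and 25 reads in WT, against 62 and 78 in OX and 17 and 8 in KO, and was called only between OX and KO (log2 ratio 2.16, SE 0.43, adjusted p = 0.0373). That call was lost without WT 1, WT 2, OX 1, OX 2 or KO 2 (0.0710 to 0.170). Os02t0669000-01 had 1.32 and 1.30 CPM in WT, against 2.71 and 4.09 in OX and 2.07 and 1.39 in KO, and was not called in any comparison (1.38 in OX, SE 0.34, adjusted p = 0.0696), although with plain library totals and in the DESeq2 Wald test it was higher in OX (0.0278 and 0.0373).

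Beside the GDSL members, 25 other transcripts have descriptions that name a lipase, phospholipase or patatin. They gave 8 higher and 5 lower calls in OX, 7 and 4 in KO, and 3 and 4 between OX and KO. Their median log2 fold changes were 1.02, 0.37 and 0.16. The shares of all tested transcripts called were 44.1%, 36.0% and 38.3% in the same order. Both listed transcripts of Os01g0253900 are among the 7 higher in KO. The 8 higher calls in OX became 2 without WT 1 or OX 2 and 3 without WT 2 or OX 1, and 13 with plain library totals, while DESeq2 size factors gave 5 higher and 6 lower. The 7 in KO became 3 without KO 1, with TMM or with DESeq2 size factors, and 4 without WT 1, WT 2 or KO 2. The 3 higher calls of OX against KO became 0 without OX 1, KO 1 or KO 2, 1 without OX 2, 8 with TMM and 7 with DESeq2 size factors.

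**Figure D5:**
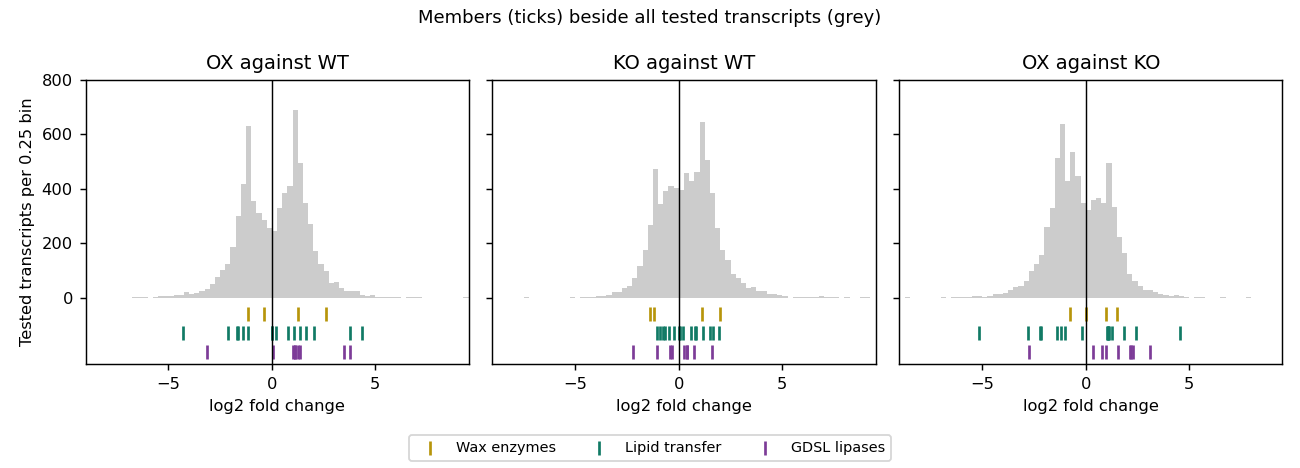
Histograms of the log2 fold changes of all 7034 tested transcripts (grey, in bins of 0.25) for each comparison, with a tick below for each member, coloured by role. In OX against WT most lipase ticks lie above 0, with 1 at -3.13, and the lipid transfer ticks spread from -4.31 to 4.37.

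Set against WT, the members followed several patterns. Of the 29, 4 were called higher in both modified genotypes (the fatty acid hydroxylase, Os05t0477900-01, Os05t0159200-01 and Os07t0642200-01), and 1 was called lower in both, the CUT1-like enzyme. With TMM or DESeq2 size factors the 4 became 2, since both lipases lost their KO call, and the CUT1-like enzyme lost each of its calls on leaving out any of 3 libraries. Opposite calls were found for 2, the lipid transfer members Os12t0115300-01 and Os03t0251000-03, and each lost its KO call in some of the alternative settings. Calls in OX alone numbered 9, of which 6 were higher and 3 lower. Calls in KO alone numbered 6, of which 2 were higher and 4 lower. A call in 1 genotype alone does not show that the genotypes differ, and the OX to KO value given above for each of these 15 members is the test of that difference. The other 7 were called in neither. The shares of all tested transcripts with each of these patterns were not counted, so the patterns are not shown to be particular to the members.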

How the data were processed

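Leaf RNA of 6 rice libraries was analysed from 1 deposited expression table on IRGSP-1.0 (build per the submitters' processing notes). No source used here gives the aligner, counter or strand setting. The authors' deposited estimated counts are whole numbers, and the authors' FPKM, scaled to transcript length and library depth per the file headers, served only to recover plain library totals and to rank members by level. The authors' deposited log2 normalised values gave back their effective library totals. The deposited linear fold changes, signed scores with a fall by n written as −n, and p-values show the authors' selection, and the ratio of their adjusted to unadjusted p-values shows that 27384 transcripts were tested. Deposited TPM values were not used.

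Counts were tested with edgeR 4.0.16 (R 4.3.3) by the robust quasi-likelihood test, in 1 model of the 6 libraries, with a term for group alone and the effective totals as library sizes. The filterByExpr filter left 7034 transcripts, dropping 160. Benjamini-Hochberg adjustment ran over 27384 transcripts, and calls needed an adjusted p below 0.05. The SE is the log2 fold change over the square root of F. The common biological coefficient of variation was 0.291. The procedure was tested on simulated data. Alternatives were plain library totals, TMM, DESeq2 1.42.0 size factors, the DESeq2 Wald test, no filter, a replicate block and leaving out each library. Libraries of a group differed beyond sampling noise (chi-square per degree of freedom 17.3 in WT, 19.4 in OX and 13.6 in KO).

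The members and lists were chosen with earlier results of these data known. Values in every library are given, per role, for up to 5 called members each way in OX against WT, up to 3 each way in the other comparisons, the 2 with the highest mean FPKM, members with opposite calls, and neighbours. Os01t0214600-01, Os02t0669000-01 and the 3 lipid transfer transcripts without a call were named to account for every member. Non-member transcripts with values are the pathway's or share a gene with a member, and were chosen after their values were seen. None of the 29 genes (0 matched) was found in the RefSeq gene table at hand, so no sequence is shown.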

Additional observations from a re-analysis of the deposited data

How the results depend on the processing

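Of the 48 member calls over the 3 comparisons, 20 held in each of the 12 alternative settings, 28 were lost in at least 1, and 0 changed direction. In KO against WT the 7 members called higher became 4 with TMM and 3 with DESeq2 size factors, both of which centre the listed transcripts and so move the median log2 fold change of all of them from 0.43 to 0.03 and -0.06. In OX against KO the 6 called lower became 3 with TMM and 3 with the replicate block, where the cause was not tested. Leaving out 1 library gave 7 to 10 higher and 2 to 4 lower in OX against WT, 3 to 6 and 2 to 4 in KO against WT, and 6 to 11 and 2 to 3 in OX against KO. With fewer libraries the spread is estimated from fewer samples, and the lone library of a group is taken to vary like the others. The replicate numbers do not pair the libraries: deviations of same-numbered libraries correlated at 0.0766 (WT and OX), 0.0277 (WT and KO) and 0.0292 (OX and KO). With the replicate block the counts were 11 higher and 4 lower in OX against WT, 5 and 4 in KO against WT, and 11 and 3 in OX against KO. What depth limits was not tested. Every listed transcript was selected by the authors for change, so shares of calls say nothing of unlisted transcripts.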
